A study of Homo sapiens with 12 samples.

Results

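The sites described here are the genomic regions at which both chromatin immunoprecipitation (ChIP) libraries of the PPARγ mutant KQ gave a peak and wild-type PPARγ gave one as well. They were taken as the peaks of the pooled KQ list, on chromosomes 1 to 22 and X, that overlapped by 1 bp or more a peak in both single KQ libraries and a peak of the pooled wild-type (WT) list. The rule was met by 340 of 2846 pooled KQ peaks (11.9%), while 80.4% of those peaks overlapped a pooled WT peak. Members were thus chosen by the peak calls themselves, so overlap, and the high place in the KQ list that detection in both libraries brings with it, are given as description and not as findings.

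The cells were MCF10A-NeuT, human breast epithelial cells of the MCF10A line made tumorigenic by the NeuT oncogene and kept in DMEM with fetal bovine serum. All 12 libraries, in 6 groups of 2, came from this line after retroviral infection with pMSCV-IRES-GFP vectors packaged in HEK-293T cells: empty vector, PPARγ, or PPARγ carrying K154/155Q (KQ), each as a ChIP and an input group. The 4 ChIP libraries of the WT and KQ groups and the pooled list of each group were used, and the vector and input libraries were not analysed here. Expression of the introduced receptor was stable and came from the viral vector, on top of the cells' own PPARG gene. The labels name an antibody to PPARγ, which would also pull down the cells' own receptor, whereas the design text names a Flag antibody, so the 2 descriptions of the pull-down differ. The same text calls the mutant acetylation deficient. Whether the libraries of a group are separate cultures is not stated, and their spread may therefore be technical. A peak list holds no measure of the mutation or of receptor amount, and the labels were not checked against either.

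PPARγ is a nuclear receptor that binds DNA as a heterodimer with the retinoid X receptor, classically at a direct repeat of the half-site AGGTCA with a single spacer base (DR1). Fatty acids and their derivatives act as ligands, and known target genes store lipid in droplets, carry fatty acids or burn them in mitochondria and peroxisomes. In fat cells the receptor drives differentiation, and in epithelia it is known for control of lipid metabolism and growth.

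Sequence could be shown for the shared sites that lie at gene starts with a sequence window. Windows of 250 bases before to 50 after a protein-coding start were read from RefSeq's GRCh38.p14 table, whose assembly is that of hg38. They were available for 15811 of 19970 protein-coding genes, and the starts of the other genes were not searched. The shared sites touched 13 of 22131 such windows, at 12 sites, because SMG5 and TMEM79 start head to head under a single site. In all 13 windows the KQ summit, the position of highest signal, lay upstream of the start, at a median of 152 bp, and 11 of the windows held the summit. An 8-letter word with 2 CG steps, TCTCGCGA, was present on either strand in 8 of these 13 windows (61.5%), against 349 of all 22131 windows (1.58%). The word was noticed in these sequences and counted afterwards. The stretches below are the upstream parts of the windows within or next to the peak that carry it, shown because they hold the letters closest to the summits, each 5′ to 3′ on the strand of the named gene, with every copy of the word or its reverse complement in capitals (in ETFA a DR1-like stretch is also in capitals).
SMG5: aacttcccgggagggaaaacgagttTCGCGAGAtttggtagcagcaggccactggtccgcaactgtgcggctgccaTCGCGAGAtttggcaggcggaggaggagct
CUL3: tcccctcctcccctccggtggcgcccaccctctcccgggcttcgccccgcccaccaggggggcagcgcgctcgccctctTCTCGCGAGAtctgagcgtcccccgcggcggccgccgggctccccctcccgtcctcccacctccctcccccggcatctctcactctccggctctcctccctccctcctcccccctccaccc
ERCC6L2: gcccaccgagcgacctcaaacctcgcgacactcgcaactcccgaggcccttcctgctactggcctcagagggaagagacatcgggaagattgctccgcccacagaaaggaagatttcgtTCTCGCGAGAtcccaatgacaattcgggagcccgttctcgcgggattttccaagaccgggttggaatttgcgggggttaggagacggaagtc
HNRNPH3: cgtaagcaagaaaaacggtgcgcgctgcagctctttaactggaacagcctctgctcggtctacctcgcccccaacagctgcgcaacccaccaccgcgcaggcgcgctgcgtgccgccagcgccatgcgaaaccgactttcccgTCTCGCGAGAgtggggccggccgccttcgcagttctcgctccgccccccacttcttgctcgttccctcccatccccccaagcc
DENR: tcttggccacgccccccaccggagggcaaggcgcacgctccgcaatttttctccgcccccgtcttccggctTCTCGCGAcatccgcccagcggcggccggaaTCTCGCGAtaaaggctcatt
CDK12: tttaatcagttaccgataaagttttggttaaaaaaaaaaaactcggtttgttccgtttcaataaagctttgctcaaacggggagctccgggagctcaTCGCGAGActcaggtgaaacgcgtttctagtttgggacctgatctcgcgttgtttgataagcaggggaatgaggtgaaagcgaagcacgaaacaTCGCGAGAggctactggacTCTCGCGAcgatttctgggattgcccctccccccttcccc
ETFA: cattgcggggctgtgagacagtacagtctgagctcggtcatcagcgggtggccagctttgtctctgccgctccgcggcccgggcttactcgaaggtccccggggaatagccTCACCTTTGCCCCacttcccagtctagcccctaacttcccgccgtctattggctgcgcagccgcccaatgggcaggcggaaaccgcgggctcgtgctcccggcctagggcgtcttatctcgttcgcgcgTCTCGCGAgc

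The stretches lie at chr1:156282826-156282931 (SMG5, minus strand), chr2:224585414-224585613 (CUL3, minus), chr9:95875480-95875690 (ERCC6L2, plus), chr10:68331838-68332063 (HNRNPH3, plus), chr12:122752702-122752823 (DENR, plus), chr17:39461236-39461485 (CDK12, plus) and chr15:76311470-76311719 (ETFA, minus). SMG5 acts in nonsense-mediated mRNA decay, CUL3 is the scaffold of a ubiquitin ligase family, HNRNPH3 is a splicing factor, DENR restarts translation, CDK12 is a kinase of transcribing RNA polymerase II, and ETFA passes electrons from fatty acid oxidation to the respiratory chain. As background, the palindrome formed by this word and its reverse complement is known as an element of CpG island promoters. Binding of any other factor there was not measured.

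Apart from ETFA, the word lay close to the KQ summit. Its nearest copy was 11 bp from the pooled KQ summit at SMG5, 10 at TMEM79, 1 at CUL3, 10 at ERCC6L2, 7 at HNRNPH3, 5 at DENR, 3 at CDK12 and 55 at ETFA, a median of 8.5 bp over the 8 windows. From the pooled WT summit of the same sites it was 10, 11, 8, 37, 30, 14, 44 and 125 bp in that order. At the site shared by SMG5 and TMEM79 both pooled summits were thus equally near within 1 bp, and in the other 6 windows the pooled KQ summit was the nearer one. In the single libraries SMG5 gave 6 and 8 bp with KQ and 25 and 10 bp with WT, and the groups did not overlap. CDK12 gave 10 and 0 bp with KQ against 43 and 36 bp with WT, again without overlap. CUL3 gave 17 and 2 bp with KQ and 11 and 18 bp with WT, and DENR 2 and 4 bp with KQ and 15 and 4 bp with WT, so these groups overlapped or touched. A distance of at most 20 bp was found in 7 of 8 windows with the word under shared sites (87.5%), which count the site of SMG5 and TMEM79 for each gene. It was found in 33 of 64 under all pooled KQ peaks (51.6%), shared sites included, and in 71 of 146 under all pooled WT peaks (48.6%). Among pooled KQ peaks without a peak in both KQ libraries, it was found in 20 of 42 that overlapped WT (47.6%) and 3 of 11 that did not (27.3%). Under the best 2846 WT peaks it was found in 1 of 8 (12.5%). It was found in all 3 windows with the word under reproducible KQ peaks that had no pooled WT peak, so closeness was not particular to the shared sites. No test was made over the windows.

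The word was not particular to the shared sites among KQ peaks. It occurred in 64 of 131 windows under any pooled KQ peak (48.9%), in 42 of 80 windows under KQ peaks that overlapped WT without meeting the rule (52.5%) and in all 3 windows under reproducible KQ peaks that had no pooled WT peak. Under pooled WT peaks it occurred in 146 of 1206 windows (12.1%), and in 8 of 83 (9.64%) when the WT list was shortened to its best 2846 peaks. Among the WT windows, 50 of the 93 that also lay under a KQ peak held the word (53.8%), against 96 of the 1113 that did not (8.63%). By library, the share was 28 of 56 (50.0%) and 24 of 43 (55.8%) with KQ, and 95 of 712 (13.3%) and 75 of 778 (9.64%) with WT. Both KQ libraries thus exceeded both WT libraries: 52.9% ± 4.11 (SD, n = 2) against 11.5% ± 2.62 (SD, n = 2), a difference of 41.4 percentage points with an exact two-sided permutation p of 0.333, the smallest that 2 libraries against 2 can give. These library counts include the windows in which the word was noticed. Without all windows under shared sites, the word was in 20 of 43 (46.5%) and 16 of 30 (53.3%) windows with KQ and in 88 of 700 (12.6%) and 68 of 767 (8.87%) with WT, a difference of 39.2 percentage points with the same exact permutation p of 0.333.

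**Figure D1:**
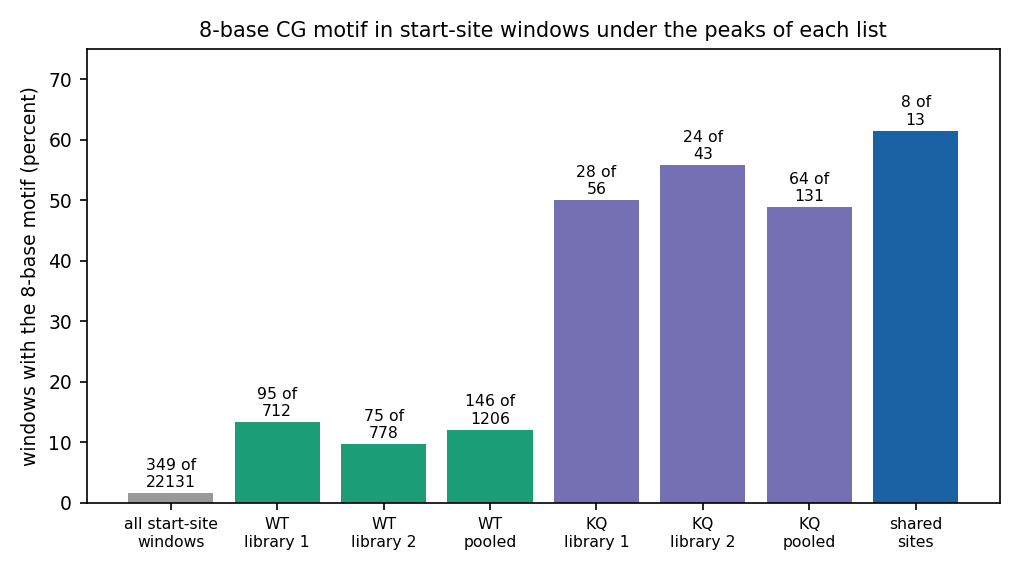
Share of gene-start windows that hold the 8-base word (vertical axis, percent, from 0), for all windows, for windows under the peaks of each WT library, each KQ library and both pooled lists, and under the shared sites. Bars carry the counts; both KQ libraries stand at 50.0% and 55.8%, above both WT libraries at 13.3% and 9.64%, and the shared sites at 61.5% of 13 windows.

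A DR1-like stretch was looked for in the same windows. The DR1 repeat (AGGTCA, 1 free base, AGGTCA) with at most 2 mismatches in its 12 fixed letters, on either strand, occurred in 2 of the 13 windows, PPP1R12B and RAB30, or 15.4%, against 569 of all 22131 (2.57%). Under the peaks of the single libraries it was in 7 of 56 (12.5%) and 4 of 43 (9.30%) windows with KQ. With WT it was in 45 of 712 (6.32%) and 49 of 778 (6.30%). Both KQ libraries thus exceeded both WT libraries here too, by a mean of 4.59 percentage points. The exact two-sided permutation p was 0.333, the smallest possible with n = 2 a group. Without the windows under shared sites the library counts were 5 of 43 (11.6%) and 2 of 30 (6.67%) with KQ. With WT the shares were then 6.14% and 6.26%. In the pooled lists the repeat was in 9 of 131 windows with KQ (6.87%) and 70 of 1206 with WT (5.80%). With the WT list shortened by rank to the length of the KQ list, it was in 8 of 83 windows (9.64%), above pooled KQ. The order of the groups thus depended on the list compared, and the KQ counts were small. With at most 3 mismatches the repeat occurred in 6 of 13 windows (46.2%) and in 19.0% of all windows. PPP1R12B encodes a regulatory subunit of myosin phosphatase and RAB30 a small GTPase of the Golgi. Their upstream stretches, at chr1:202348449-202348698 (plus strand) and chr11:83034275-83034524 (minus strand), have the match in capitals and show the receptor's known type of site beside the other sequences.
PPP1R12B: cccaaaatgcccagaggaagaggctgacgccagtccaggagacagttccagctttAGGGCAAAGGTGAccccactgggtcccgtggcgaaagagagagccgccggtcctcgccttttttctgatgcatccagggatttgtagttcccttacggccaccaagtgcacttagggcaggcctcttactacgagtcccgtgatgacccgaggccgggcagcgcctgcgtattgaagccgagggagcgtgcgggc
RAB30: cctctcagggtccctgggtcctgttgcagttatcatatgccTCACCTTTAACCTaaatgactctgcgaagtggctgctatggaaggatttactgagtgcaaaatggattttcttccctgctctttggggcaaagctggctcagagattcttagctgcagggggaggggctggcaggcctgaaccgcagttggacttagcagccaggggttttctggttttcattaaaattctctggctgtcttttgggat

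The DR1-like stretch was 20 bp from the KQ and 14 bp from the WT summit at PPP1R12B, and 6 and 35 bp at RAB30. ETFA held both kinds of letters: the DR1-like stretch, with 3 mismatches, was 72 bp from the KQ summit and 2 bp from the WT summit, and the CG word was 55 bp from the KQ summit and 125 bp from the WT summit. The KQ summit of ETFA therefore sat between both, and the WT summit on the DR1-like stretch. In the single libraries the CG word of ETFA was 34 and 94 bp from the KQ summits and 110 and 120 bp from the WT summits. Other words searched on both strands were near the level of all windows: GGGCGG in 9 of 13 (56.3% of all windows), CCAAT in 5 of 13 (34.6%) and TGANTCA in 1 of 13 (6.15%). The exact half-site AGGTCA was in 0 of 13 windows (11.9% of all). SMG5, TMEM79, HNRNPH3 and RAB30 were picked after their values were seen, whereas the naming rule gave the other starts.

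Within the KQ list the shared sites filled the top. They were all of the first 50 peaks by q-value, 97 of the first 100, 162 of the first 200 and 269 of the first 500, with ranks from 1 to 1967 and a median of 212.5. The first peak that was no member, inside CUL2, stood at rank 66 and had a peak in 1 KQ library. In the WT list the shared sites ranked from 1 to 24291 of 25164, with a median of 989.5 and quartiles of 249.75 and 3372.25. There, 235 of 340 (69.1%) were in the best 10% and 10 in the lower 50%. As percent of the list length, the median place was 7.47 in the pooled KQ list and 3.93 in the pooled WT list, 27.2 and 31.0 in the single KQ libraries, and 5.48 and 7.14 in the single WT libraries. Single KQ lists were short (1263 and 1035 peaks, against 18143 and 17859 with WT), and the members ran through their whole length.

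**Figure D2:**
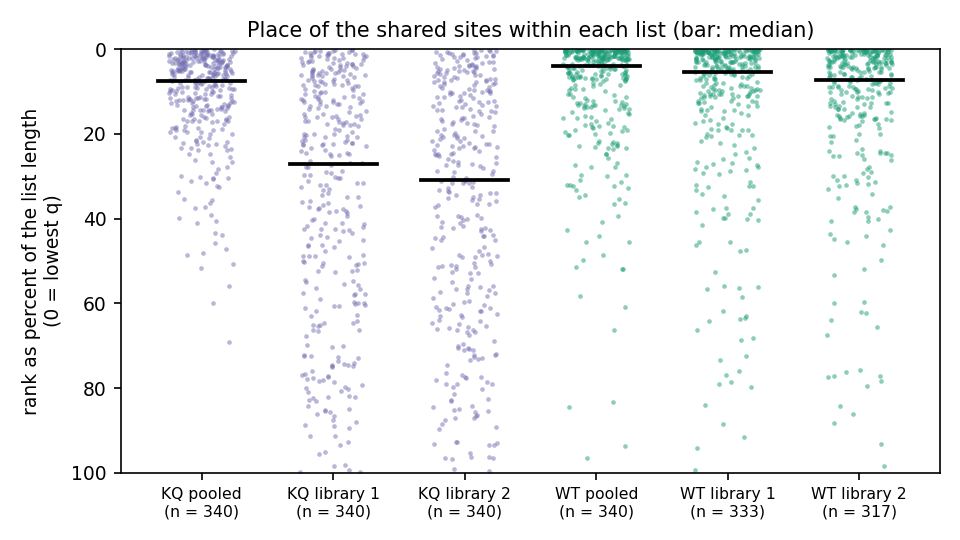
Rank of each shared site as a percent of the list length (vertical axis, 0 is the peak with the lowest q) in the 6 lists, with 1 point per site and a bar at the median. The medians lie at 7.47 and 3.93 in the pooled KQ and WT lists, and at 27.2 and 31.0 in the single KQ libraries, where the sites spread over the whole list.

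Depth behind these ranks was modest. The number of tags at the summit, recovered from the authors' fold and p, had a median of 37 (8 to 101) and 18 (7 to 68) in the WT libraries and 22 (8 to 57) and 21 (9 to 44) in the KQ libraries, over the 313 shared sites with a peak in all 4. The caller's background at the same summits had a median of 2.34 and 0.896 tags with WT and 2.48 and 2.30 tags with KQ. Tags were not scaled between libraries, so they show the precision of each call and not a difference in binding. Their part in the order of the ranks was not tested. A peak was found at 333 of 340 shared sites in WT library 1, at 317 in WT library 2, at 313 in both and at 3 in neither, the 3 nearest to LRRC7, LOC105377015 and AUH, which were picked for this.

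The order of the sites was only partly common to the groups. The Spearman correlation of the ranks among the members was 0.31 between the pooled KQ and WT lists (n = 340). Over the 313 sites with a peak in every library it was 0.65 between the WT libraries, 0.33 between the KQ libraries and 0.23 to 0.25 between a WT and a KQ library. The value within KQ stood nearer to those between the groups than to the value within WT. With ranks taken from fold in place of q, the pooled value fell to 0.14. The sites share libraries and depth, so these are descriptions. Split into 4 sets of 85 by WT rank, the median KQ rank was 111 for WT ranks 1 to 237, 158 for 254 to 985, 251 for 994 to 3362 and 360 for 3403 to 24291. By their medians, sites high in WT were also higher in KQ, with wide overlap, as the plot of both ranks shows.

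**Figure D3:**
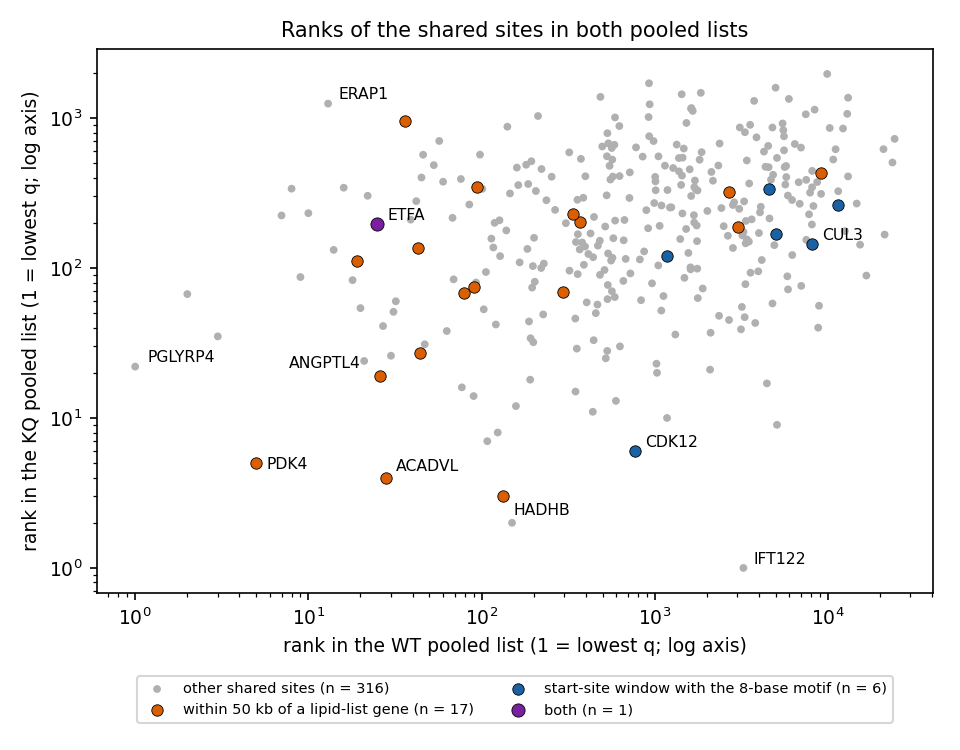
Rank in the pooled KQ list (vertical, log axis) against rank in the pooled WT list (horizontal, log axis) for the 340 shared sites, with sites near a gene of the lipid lists and start sites with the CG word coloured. PDK4 stands at rank 5 in both lists, whereas IFT122 stands at KQ rank 1 and WT rank 3252 and ERAP1 at KQ rank 1247 and WT rank 13.

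Of the 10 sites with the best worse-of-2 rank among the members, 4 lay near genes of the lipid lists. PDK4, a kinase that shuts pyruvate out of mitochondrial oxidation, had a site 12.4 kb from the gene (chr7:95608719-95609140) at rank 5 in both pooled lists. In the single libraries it ranked 3 and 12 with KQ and 4 and 48 with WT, with 57 and 44 tags at the KQ and 96 and 44 tags at the WT summits. The ANGPTL4 site (chr19:8367337-8367711), inside the gene of a secreted inhibitor of lipoprotein lipase, ranked 19 in the KQ and 26 in the WT pooled list, 11 and 67 in the KQ and 22 and 26 in the WT libraries. ACADVL, the first dehydrogenase for very long fatty acids, had a site inside the gene (chr17:7220190-7220513), 320 bp upstream of a start of the neighbouring gene DLG4, at KQ rank 4 and WT rank 28. Its library ranks were 5 and 14 with KQ and 48 and 83 with WT. PLIN2, a coat protein of lipid droplets, had a site 34.3 kb away at KQ rank 27 and WT rank 44, with 45 and 6 in the KQ and 94 and 42 in the WT libraries. These 4 sites were among the best 100 peaks of all 6 lists.

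The other 6 sites lay near genes of varied function, and by the ranks in the whole lists several of them stood above ANGPTL4, ACADVL or PLIN2. The site 3.8 kb from PGLYRP4, a secreted protein that recognises bacterial peptidoglycan, was the first of the whole WT list and 22 in the KQ list, with 6 and 2 in the WT and 14 and 50 in the KQ libraries. BPNT1, which clears a by-product of sulfation, held a site at WT rank 3 and KQ rank 35. Its KQ libraries differed widely, at 584 and 8, while its WT libraries gave 24 and 11. TRHDE, an enzyme that degrades thyrotropin-releasing hormone, stood at KQ rank 24 and WT rank 21, and BCAR3, an adaptor of Src-family signalling, at 26 and 30. LYZL2 (63.5 kb away) and AP2A1 (1.2 kb away), a clathrin adaptor subunit, stood at KQ ranks 31 and 38 and WT ranks 47 and 63.

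A further set ranked far better with KQ than with WT. The peak inside IFT122, a cilium transport gene (chr3:129485760-129486166), was rank 1 in the pooled KQ list, 7 and 2 in its libraries, and 3252 in the pooled WT list, with 3717 and 8263 in the WT libraries. TLN2, which links integrins to actin, was rank 2 with KQ and 150 with WT, and its libraries spread from 1 and 13 with KQ to 2254 and 15 with WT. It was low in WT library 1 alone, at 12.4 percent of the list length. There it differed from WT library 2, at 0.0840 percent, and KQ library 2, at 1.26 percent, so its contrast rests on 1 library. IFT122 and TLN2 are given because they head the KQ list, outside the naming rule. By the difference of ranks among the members, the 5 most KQ-weighted sites lay in DOCK4 (KQ 89, WT 16684), near FFAR2 (17, 4446), near PTGER2 (56, 8887), in SRGAP1 (40, 8792) and near ZNF354A (9, 5084). FFAR2 and PTGER2 are receptors for short-chain fatty acids and prostaglandin E2, and DOCK4 and SRGAP1 regulate small GTPases. At PTGER2 the library ranks were 12 and 201 with KQ and 11646 and 8869 with WT, and FFAR2 and SRGAP1 had no peak in WT library 2. ZNF354A was high in both KQ libraries, at 21 and 15, and at 4014 and 5631 in the WT libraries.

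The reverse held for ERAP1, a peptidase that trims antigenic peptides, whose site was at WT rank 13 and KQ rank 1247. Its libraries ranked 9 and 81 with WT and 616 and 843 with KQ. The site in C2CD3, a centriole gene, stood at WT rank 36 and KQ rank 962, that in GAB2, a docking protein of growth factor receptors, at 57 and 703, that in the kinase gene STK32A at 46 and 569, and that 4.8 kb from LOC124905366 at 141 and 875. The WT list is much longer than the KQ list, so rank shows the order inside each list and not a change in binding. These sites were picked for the contrast, and no test of it was made.

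Genes of fatty acid breakdown had many shared sites. Of 31 genes of fatty acid activation and beta-oxidation, 11 (35.5%) had a shared site within 50 kb, and the same 11 had it within 5 kb, against 2.57% and 1.05% of 19970 protein-coding genes. Lipid droplet and lipid handling genes had 4 of 24, and pyruvate, ketone and uncoupling genes 4 of 14, but within 5 kb these fell to 2 and 0. Together these 3 lists gave 19 of 69 genes (27.5%), and 10 other lists, fixed alongside them with earlier results of these data known, gave 14 of 203 (6.90%). Within 5 kb the counts were 13 and 5, and basal mammary epithelium had 3. The 19 genes rest on 18 sites, whose median rank was 123 in the KQ and 85 in the WT pooled list. Within the 340, 13 of the 18 were among the best 170 by KQ rank and 15 by WT rank.

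The 11 genes with a site within 50 kb are given by their role, and the other genes of the list had none within that distance. Counted as the nearest gene of a site at any distance, 12 genes of the list had one. For activation and entry into mitochondria, ACSL3, which joins fatty acids to coenzyme A, had a site 0.9 kb from the gene at KQ rank 188 and WT rank 3025. CPT1A, the carnitine transferase that admits them to mitochondria, held one (chr11:68839269-68839495) at 111 and 19, with 218 and 102 in the KQ and 12 and 62 in the WT libraries. CPT1B, its muscle form, had one 4.4 kb away at 135 and 43. The 2 carnitine transferase sites thus stood higher in the WT than in the KQ list, and the ACSL3 site lower.

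For the oxidation steps, the subunit genes of the trifunctional protein, HADHA and HADHB, shared a pair of sites. The one inside HADHB (chr2:26274046-26274436) was rank 3 in the pooled KQ list, 2 and 1 in the KQ libraries, 133 in the pooled WT list and 102 and 459 in the WT libraries. The one inside HADHA (chr2:26240957-26241257) was 203 with KQ and 372 with WT. ECH1, an enoyl-CoA isomerase, had a site 0.2 kb away at 69 and 296, and ETFA had the start site shown above at 197 and 25. DECR1, which handles unsaturated fatty acids, held a pair of sites at KQ ranks 75 and 431 and WT ranks 91 and 9187. The weaker of the DECR1 sites had no peak in WT library 1.

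Peroxisomal and storage genes followed. CAT, the peroxisomal catalase, had a site 438 bp from a start at KQ rank 230 and WT rank 338. PEX11A, which divides peroxisomes, shared its site with the neighbouring lipid droplet gene PLIN1 (chr15:89680617-89680898), at 68 and 79. FABP4, a fatty acid carrier, had a site 9.4 kb away at 347 and 94, with KQ libraries at 1087 and 183 and WT libraries at 187 and 184. UCP2 and UCP3, mitochondrial carriers, were both within 50 kb of the C2CD3 site named above. FABP4 differed more between the KQ libraries than between the WT libraries.

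The lists outside lipid metabolism had between 0 and 4 genes each. Basal mammary epithelium had 4 of 20, or 20.0%, a larger share than the lipid droplet and lipid handling list: the keratin genes KRT6A and KRT6B, which share a site at KQ rank 61 and WT rank 834, the transcription factor TP63 (214 and 4602) and the membrane peptidase MME (541 and 1380). Adipocyte differentiation had 2 of 20, EBF1 (216 and 68) and RETN (330 and 1013), AP-1 and Hippo factors 2 of 20, FOS (43 and 3806) and BATF, whose site 49.7 kb away had no peak in WT library 1, and autophagy 2 of 18, SQSTM1 (18 and 191) and GABARAP. Luminal epithelium had 1 of 20 (ELF5), nuclear receptors and coregulators 1 of 25 (MED1), hepatocyte markers 1 of 19 (ASGR1) and blood cell markers 1 of 20 (CD14), whereas glycolysis had 0 of 19 and cell cycle 0 of 22. GABARAP and ASGR1 were counted for the ACADVL site, MED1 for the CDK12 site, ELF5 for the CAT site and CD14 for a site inside TMCO6. Distance to a gene does not show which gene a site acts on.

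**Figure D4:**
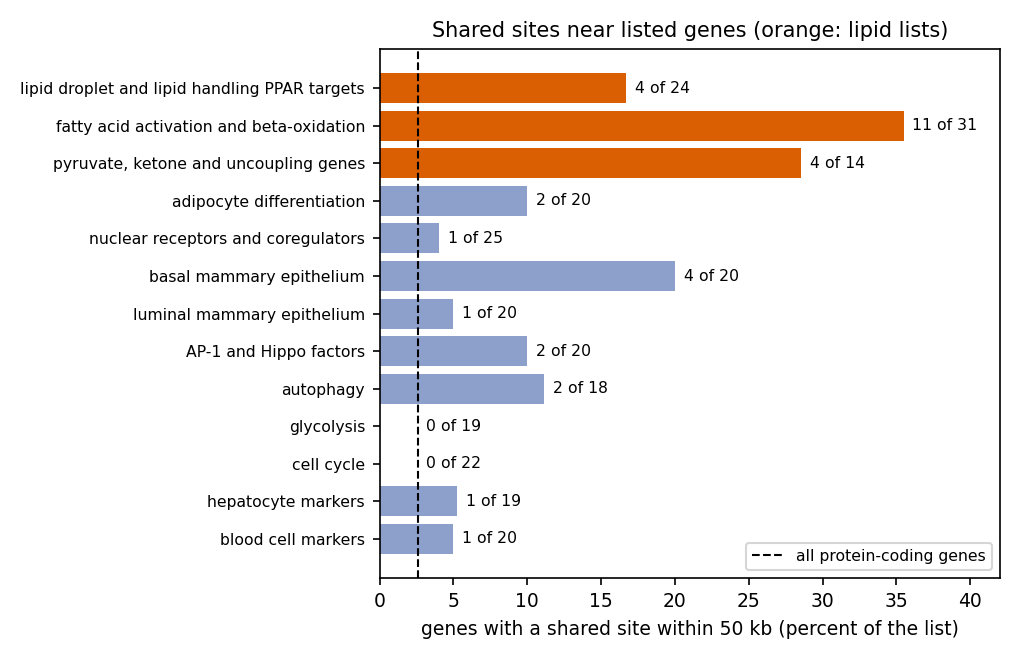
Percent of the genes of each list (horizontal axis, from 0) with a shared site within 50 kb, with counts beside the bars and a dashed line at the 2.57% of all protein-coding genes. The fatty acid activation and beta-oxidation list stands highest, with 11 of 31 genes, and glycolysis and cell cycle at 0.

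Pooled KQ and WT summits fell close together. The rule asked for overlapping peaks, which itself keeps summits near each other, so the distances are given as description. The distance between pooled KQ and WT summits had a median of 22 bp with quartiles of 11 and 41.25, and it was at most 50 bp at 290 of 340 sites. It exceeded 100 bp at 11 sites and 200 bp at 2. The farthest apart, at 602 bp, were the summits inside C19orf12, a mitochondrial membrane protein gene, where the WT peak spanned 927 bp and the KQ peak 355 bp. Other large distances were found near CYP2A6 (188 bp), inside GNAS (158) and near TBC1D31 (140). Both summits were on the same base inside MACROH2A1, a histone variant gene, 1 bp apart inside CCN4 and 2 bp apart inside BCAR3. Among the 4 sets by WT rank the median was 19, 22, 20 and 32 bp from the best to the last, the widest at the weakest WT sites.

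Distances between the groups were about as large as those within them. Over the 313 sites in all 4 libraries the median was 24 bp between the WT libraries and 32 bp between the KQ libraries, and 30, 25, 35 and 31 bp for the 4 pairs of a WT and a KQ library. The mean of the between-group pairs exceeded that of the within-group pairs by 2.25 bp (30.25 against 28), with an exact two-sided permutation p of 0.333, the smallest the design allows. Without WT replicate 2 the difference was -4.5 bp. The medians of the pairs thus overlapped between the kinds of pair, and with 2 libraries a group a shift of any size could not have passed a threshold of 0.05.

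**Figure D5:**
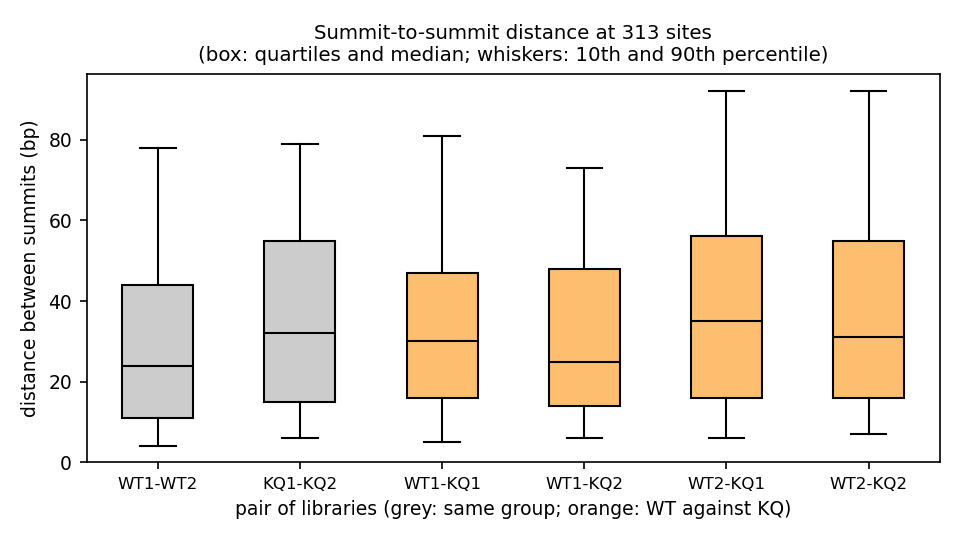
Distance in bp between the summits of the same site (vertical axis) for each pair of libraries at 313 sites, grey within a group and orange between WT and KQ; boxes are quartiles with the median and whiskers the 10th and 90th percentile. Medians are 24 and 32 bp for the grey boxes and 30, 25, 35 and 31 bp for the 4 orange boxes, so their ranges overlap.

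Shared sites were wide for the lists they came from, which the rule itself may favour, since a wide peak overlaps others more easily. Their median width was 297 bp (193 to 565) in the pooled KQ list, whose other peaks had a median of 200 bp, and 324.5 bp (141 to 927) in the pooled WT list, with 195 bp over all its peaks. At 217 sites the WT peak was the wider one, at 121 the KQ peak, and at 2 both were equal, with a median WT to KQ ratio of 1.10. In the single libraries the median width was 300 and 256 bp with WT and 239 and 214 bp with KQ. WT libraries thus gave wider peaks, 278 ± 31.1 bp (SD, n = 2) against 226.5 ± 17.7 bp (SD, n = 2), a difference of 51.5 bp with an exact two-sided permutation p of 0.333, the smallest possible here. Median tags at these summits were 37 and 18 with WT and 22 and 21 with KQ. The median backgrounds were 2.34 and 0.896 with WT and 2.48 and 2.30 with KQ. The part of tags and background in the widths was not tested.

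Single sites showed the range. The widest KQ peaks lay near RHEB, the GTPase that switches on mTORC1 (565 bp), near the acyl-CoA synthetase gene ACSL4 (562 bp, 114.1 kb away) and near TBC1D31 (514 bp). At ACSL4 the WT peak was narrower, 295 bp, with WT rank 5887 against KQ rank 72. The narrowest lay near MFSD2A, a transporter of lysophospholipids (193 bp), inside FGR (197 bp) and at the DENR start (201 bp). The ACADVL site was 324 bp wide with KQ and 796 bp with WT.

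By location the shared sites resembled the lists around them. Inside a protein-coding gene lay 164 of 340 (48.2%, exact 95% binomial interval 42.8 to 53.7), against 45.7% of the other pooled KQ peaks and 49.4% of the pooled WT peaks. Starts were known for the 15811 of 19970 protein-coding genes with a sequence window, so sites at other starts were not counted as such. Within 1 kb of a known start lay 18 of the 314 sites off chromosome 8, whose starts were not analysed here (5.73%, interval 3.43 to 8.91), against 5.53% and 6.52%. The intervals cover counting error only, and both shares of the other lists fell inside them. Of these 18 start sites, those at AKR1B1, an aldose reductase (KQ rank 15, WT rank 349), and PPP1R15B (49 and 227) were named by the rule as well, and the PPP1R15B window held no CG word. As a share of list length PPP1R15B stood at 1.72% with KQ and 0.902% with WT, and AKR1B1 at 0.527% and 1.39%. At PPP1R12B the site ranked 83 with KQ and 18 with WT, at CUL3 144 and 8053, at ERCC6L2 169 and 5030 and at DENR 121 and 1175. Over 100 kb from any protein-coding gene lay 58 sites, the farthest at 1144.7 kb, and the share of other peaks is not given here.

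The sites had 315 different nearest genes and few clusters. A pair of sites fell inside each of ZEB2, LAMA4, LHFPL3, DOCK4, DLC1, DECR1 and BCAS3, and 3 pairs of sites were within 5 kb of each other. How often other peaks pair in this way is not given here. In ZEB2, a repressor of epithelial genes, the pair stood at KQ ranks 200 and 136 and WT ranks 119 and 2830. In DLC1, a regulator of small GTPases, it stood at 28 and 47 with KQ and 532 and 3308 with WT. In LAMA4, a laminin chain, it stood at 665 and 544 with KQ and 1340 and 1450 with WT. LHFPL3 had 46 and 146 with KQ and 348 and 3351 with WT, and BCAS3 had 206 and 158 with KQ and 3362 and 577 with WT. The WT ranks of a pair differed most in DOCK4, at 16684 and 3964, where the KQ ranks were 89 and 95. By chromosome, chromosome 1 held 44, chromosome 2 37 and chromosome 21 1, and chromosome 19 held 11 (3.24%, against 1.97% of pooled KQ and 1.79% of pooled WT peaks).

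Within 5 kb of a microRNA gene lay 6 sites, and the share of other peaks this near is not given here, so the count is a description. The site inside PANK1, which makes coenzyme A, was 816 bp from MIR107 (chr10:89591787-89592094) at KQ rank 32 and WT rank 199, with 49 and 40 in the KQ and 324 and 378 in the WT libraries. MIR324 was 2927 bp from the ACADVL site. MIR3125, MIR5702, MIR4254 and MIR6884 were 730, 3238, 4637 and 4780 bp from sites near TRIB2, IRS1, ADGRB2 and MED24, at KQ ranks 792, 344, 302 and 268. PANK1 and ACADVL were thus the only microRNA neighbours of the 6 among the best 100 KQ peaks.

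At the edge of the rule, the smallest overlap of a member was 119 bp with its WT peak, 42 bp with KQ library 1 and 127 bp with KQ library 2, and 134 members lay wholly inside the WT peak. Of 354 KQ peaks found in both KQ libraries (12.4% of 2846), 14 had no pooled WT peak and so fell outside. They ranked 131 to 1552 in the KQ list, with a median of 382. Their nearest pooled WT peak was a median of 10.05 kb away, from 441 bp to 235.5 kb, and 4 of them overlapped a peak in a single WT library. On the other side, 1949 pooled KQ peaks overlapped a WT peak without a peak in both KQ libraries, 605 with one in KQ library 1, 405 in library 2 and 939 in neither.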

How the data were processed

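ChIP-seq peak lists of 2 WT and 2 KQ libraries and the pooled list of each group were used, grouped by the labels' titles. The tools were Bowtie2 (version 2) for alignment to hg38 and MACS2 for peaks, with bedtools, deepTools and HOMER listed too, per the submitters' processing notes. The caller's settings and any use of input were not given in the sources used here. Each deposited list gives the authors' fold enrichment (a ratio), −log10 p and q, an integer score made from q, and the summit. The lowest −log10 q over the deposited lists was 1.30.

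Lists were joined by overlap of at least 1 bp and ranked by −log10 q, and between lists only ranks were compared. Genes came from RefSeq (GRCh38.p14), with sites within 50 or 5 kb of a gene span counted. Start sites came from RefSeq promoter windows, which covered 15811 of 19970 protein-coding genes. Chromosome 8, with 26 shared sites, was not analysed here for starts. Summit tags k and background were recovered from fold, taken as (k + 1) over (background + 1), and the Poisson p (largest error 0.000456). No sample was dropped and no low values were filtered. Tests over libraries were exact permutations. The overlap and tag recovery were tested on simulated data. Tools were Python 3.11.15, numpy 2.4.6, pandas 2.3.3, scipy 1.17.1 and matplotlib 3.10.9.

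Named sites were those with the best worse-of-2 rank (10), the largest rank contrasts (5 each way), the largest (5) and smallest (3) summit distances, the widest and narrowest (3 each), up to 8 start sites by KQ rank, genes with more than 1 site, and listed genes within 50 kb. Some named sites are not reported here. Shared sites, gene lists and the naming rule were chosen with earlier results of these data known, and the CG word after the sequences were seen. Alternatives changed the overlap, the q threshold, the ranking measure, the gene window, the word and the libraries.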

Additional observations from a re-analysis of the deposited data

How the results depend on the processing

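The 340 sites became 339 with an overlap of 50% of the shorter peak, 335 with the KQ summit inside the other peaks, 334 at −log10 q of at least 2 and 218 at 5. The pooled KQ list was kept in every setting, so no library was removed from it and only the overlaps asked for changed. Without the overlap with KQ replicate 2 there were 945 sites, and 745 without that with KQ replicate 1, since the rule then asks for fewer peaks. A single WT library in place of the pooled WT list gave 320 and 334. Without the overlap with KQ replicate 2 or 1, genes of the 3 lipid lists with a site were 33 and 29 of 69. The shares of all protein-coding genes were then 6.14% and 5.15%. The difference in summit distance ran from -4.5 to 8.5 bp without 1 library, turning negative without WT replicate 2, and the difference in width from 29.5 to 73.5 bp. Rank agreement by fold was 0.14, and a start window of 5 kb gave 11.8%. The full 10-letter palindrome of the CG word was in 23.1% of the windows (0.569% of all windows). TCTCGCGA ran from 56.4 to 57.1% without the overlap with 1 KQ library, with the pooled KQ list kept. The word and its alternatives were chosen after seeing the data. The cause of these moves was not tested, other than through the sites counted. Of 129 alternatives, 84 left the result as it was, 44 moved it and 1 reversed it. With a replicate block, taken as differences within a replicate number, the width difference stayed at 51.5 bp (61 and 42) and that of the CG word at 41.4 percentage points (36.7 and 46.2), with an exact sign-flip p of 0.5, the smallest possible, and whether the numbers pair the libraries is not stated. Without 1 library the latter ran from 38.5 to 44.3. Tag depth, as low as 7 tags at a summit of the sites found in all 4 libraries, limits the ranks of weak sites.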

Other observations

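The mitochondrial chromosome, outside the rule, had 13 peaks in the pooled KQ list, and 6 of them would have met the same overlaps.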
